A study of Mus musculus with 10 samples.

Results

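Skeletal muscle is recognised in RNA by a small set of genes that build and drive its contractile apparatus, and 42 such genes were followed here through popliteal lymph node libraries. They were picked by gene name as a skeletal muscle contraction and fibre type set, and 42 of the 54987 genes in the deposited expression table carried those names. By known fibre type, 14 are fast-fibre genes, 9 are slow-fibre genes and 19 are used by both fibre types. The node behind the knee drains the hind paw and lies against leg muscle and fat.

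The study compared 3 groups of male BALB/c mice of 6 to 8 weeks, with nodes taken on day 15. Acu mice (n = 3 libraries, numbered 4, 6 and 28) were injected under the skin of the right hind paw with 0.1 ml of complete Freund's adjuvant (killed mycobacteria in oil, used to induce arthritis) and had acupuncture, which the series title places at the leg point ST36. AIA mice (n = 4, numbered 5, 10, 31 and 38) had the adjuvant alone, and Control mice (n = 3, numbered 15, 16 and 17) had the same volume of saline. A sham acupuncture group is mentioned in the labels and was not analysed here. No genotype other than the strain is given, and nothing in the labels ties each library to a separate mouse. The p-values therefore reflect library-to-library spread, which may be technical.

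A sarcomere slides myosin thick filaments past actin thin filaments when calcium, let out of the sarcoplasmic reticulum through the ryanodine receptor, binds troponin. Fast and slow fibres build the same machine from different isoforms of myosin heavy and light chains, troponins, calcium pump and calsequestrin. Leg muscles of the mouse are mostly fast, with slow fibres concentrated in the soleus. A lymph node has no skeletal muscle cells of its own.

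Promoters of 33 of the 42 members were found in RefSeq (build GRCm38.p6), each covering 250 bases before and 50 after the annotated start. A total of 6 are shown here because the results turn on these genes: the actin of every fibre (Acta1), a fast heavy and light chain (Myh4, Mylpf), a slow heavy chain (Myh7) and 2 slow troponins (Tnnc1, Tnni1). Capitals mark CAGCTG (an E-box, the kind of site bound by MyoD), CATTCC (the MCAT element), TATAAA, the MEF2 site and the CArG box, each searched on both strands.
Acta1, chr8:123894726-123895025, minus strand: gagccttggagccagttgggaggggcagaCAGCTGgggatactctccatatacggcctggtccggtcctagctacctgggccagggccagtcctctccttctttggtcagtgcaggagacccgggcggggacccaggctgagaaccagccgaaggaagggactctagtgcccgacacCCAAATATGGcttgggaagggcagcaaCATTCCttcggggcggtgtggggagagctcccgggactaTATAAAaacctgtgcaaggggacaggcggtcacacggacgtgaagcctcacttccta
Myh4, chr11:67237562-67237861, plus strand: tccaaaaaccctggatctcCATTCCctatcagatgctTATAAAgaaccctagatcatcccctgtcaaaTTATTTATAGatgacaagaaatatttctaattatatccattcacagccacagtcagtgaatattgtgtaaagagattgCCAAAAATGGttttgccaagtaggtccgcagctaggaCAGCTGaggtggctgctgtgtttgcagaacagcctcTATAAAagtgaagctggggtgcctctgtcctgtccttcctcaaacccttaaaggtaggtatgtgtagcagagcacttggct
Mylpf, chr7:127211358-127211657, plus strand: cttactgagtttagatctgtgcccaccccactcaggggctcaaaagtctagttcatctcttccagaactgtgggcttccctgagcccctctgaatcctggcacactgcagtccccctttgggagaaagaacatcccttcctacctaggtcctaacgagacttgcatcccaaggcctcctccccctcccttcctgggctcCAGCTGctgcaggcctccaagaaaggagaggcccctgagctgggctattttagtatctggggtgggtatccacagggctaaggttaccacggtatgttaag
Myh7, chr14:54994577-54994876, minus strand: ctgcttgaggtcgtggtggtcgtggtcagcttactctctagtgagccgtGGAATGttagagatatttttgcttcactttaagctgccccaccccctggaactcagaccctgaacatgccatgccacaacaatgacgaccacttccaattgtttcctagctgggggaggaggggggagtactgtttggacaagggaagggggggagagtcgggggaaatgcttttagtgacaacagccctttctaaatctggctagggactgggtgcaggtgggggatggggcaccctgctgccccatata
Tnnc1, chr14:31208062-31208361, plus strand: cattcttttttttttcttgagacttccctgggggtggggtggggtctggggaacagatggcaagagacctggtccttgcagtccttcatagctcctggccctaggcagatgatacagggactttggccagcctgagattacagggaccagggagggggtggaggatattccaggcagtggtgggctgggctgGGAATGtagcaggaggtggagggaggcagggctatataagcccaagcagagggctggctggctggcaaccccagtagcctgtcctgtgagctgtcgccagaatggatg
Tnni1, chr1:135799171-135799470, plus strand: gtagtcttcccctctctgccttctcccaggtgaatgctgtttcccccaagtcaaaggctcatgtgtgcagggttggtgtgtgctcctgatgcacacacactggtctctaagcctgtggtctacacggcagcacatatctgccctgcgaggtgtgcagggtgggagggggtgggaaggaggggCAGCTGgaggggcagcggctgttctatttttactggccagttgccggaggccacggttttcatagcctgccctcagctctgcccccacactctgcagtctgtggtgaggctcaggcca

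CAGCTG was in 51.5% of the 33 member promoters, against 16.1% of 27025 promoters of all genes. The MEF2 site was in 24.2% of member promoters, against 3.26% of all. CATTCC was in 36.4%, against 14.6%, the CArG box in 12.1%, against 1.57%, and TATAAA in 21.2%, against 14.2%. In 2 member promoters a MEF2 match shared bases with TATAAA. Between the fibre types the counts were small: CAGCTG was in 4 of 9 slow promoters and 5 of 10 fast ones, and MEF2 in 2 slow and 3 fast. These matches describe the sequence and are not evidence of binding.

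Whole libraries differed before any muscle gene was considered. Between 13269763 and 18926894 reads per library were recovered from the deposited FPKM. This is a level scaled to gene length and to a size set for each library, which differed from its recovered reads. The libraries labelled Acu 4 and Control 17 held RNA that goes against their labels of male lymph node: the decidual prolactin Prl8a2 stood at 3901 and 10739 FPKM there, and at most 1.36 FPKM elsewhere, and all 11 decidua and uterus markers were at or above 1 FPKM. Both also lacked lymphocyte RNA, with 10 B cell genes summing to 4.73 FPKM in the library labelled Acu 4 and 1.98 FPKM in the library labelled Control 17. Control 15 summed to 5.18 FPKM over those genes, against 985 to 1346 FPKM in the 7 remaining libraries, and 12 T cell genes gave 6.77 FPKM in Control 15 and 326 to 535 FPKM in those 7. Control 15 therefore lacked the defining markers of a lymph node, while 16 adipocyte genes summed to 31595 FPKM in it and to 10649 FPKM in Control 16, and to between 85.5 and 489 FPKM in the other 8 libraries. AIA 10 had 15116 genes above 0, against 21224 to 24411 in the other libraries. Of the 3 Control libraries, only Control 16 carried lymphocyte markers, so each comparison with Control is given with and without the libraries named here.

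**Figure D1:**
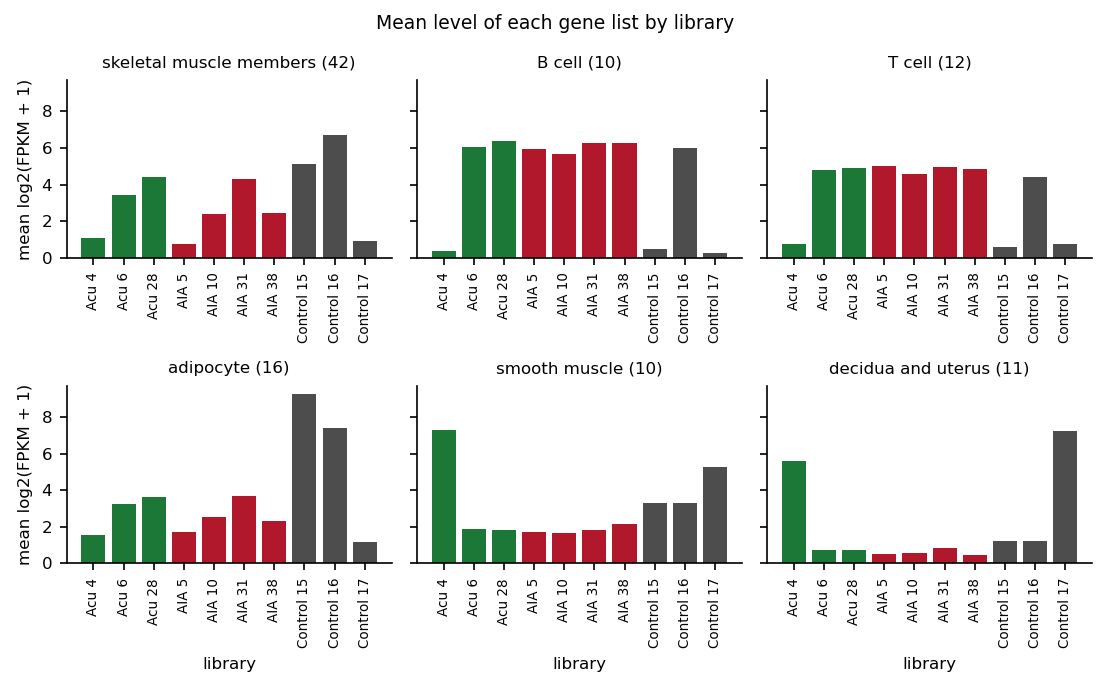
Mean log2(FPKM + 1) of 6 gene lists (vertical axis) in each library (horizontal axis), with Acu bars in green, AIA bars in red and Control bars in grey. B and T cell genes are low in the libraries labelled Acu 4 and Control 17 and in Control 15, while decidua and uterus genes are high in the libraries labelled Acu 4 and Control 17.

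Muscle RNA differed widely between libraries of the same group. The 42 genes summed to 1393, 1710 and 5405 FPKM in Acu 4, 6 and 28, to 67.9, 943, 3001 and 614 FPKM in AIA 5, 10, 31 and 38, and to 5686, 22307 and 1325 FPKM in Control 15, 16 and 17. In the libraries labelled Acu 4 and Control 17 most of that sum was Des and Tpm2, and fast-fibre genes summed to only 8.44 and 6.56 FPKM there. Control 16 was the highest and AIA 5 the lowest, and the groups overlapped. The 42 genes made up between 0.0119% (AIA 5) and 5.23% (Control 16) of all FPKM. In a bulk sample fewer muscle fibres and less muscle RNA per fibre cannot be told apart. Mitochondrially encoded genes took 3.18% to 7.96% of FPKM in Acu, 1.34% to 10.4% in AIA and 5.72% to 34.2% in Control, with Control 15 (24.5%) and Control 16 highest. The part of mitochondrial and adipocyte RNA in the muscle results was not tested.

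**Figure D2:**
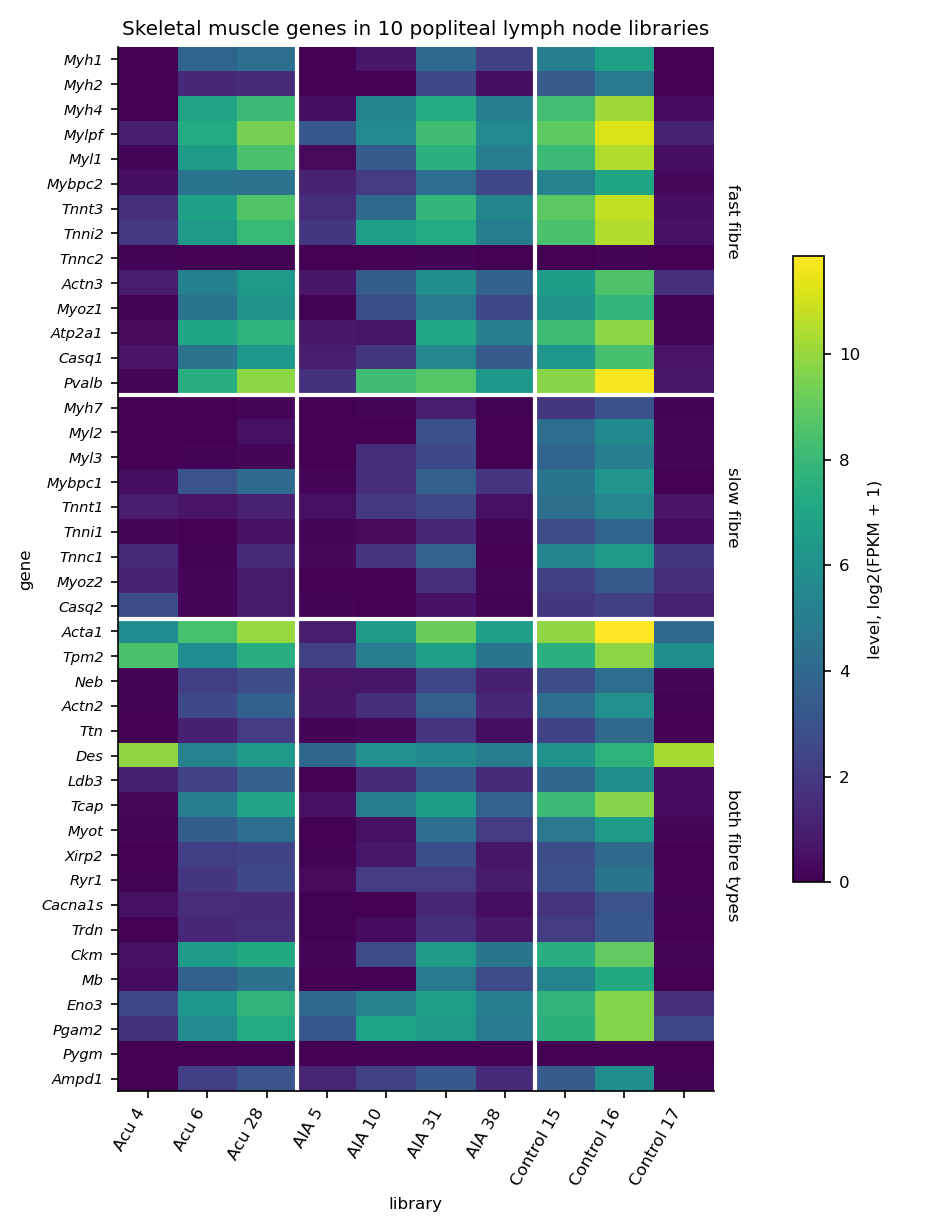
Level of each of the 42 genes (rows, log2(FPKM + 1) as colour) in each of the 10 libraries (columns, Acu, AIA, then Control), with fast-fibre, slow-fibre and shared genes in 3 blocks. In Acu 6, Acu 28 and AIA 38 the fast block is lit and the slow genes other than Mybpc1 (7.56, 16.8 and 2.42 FPKM) are dark or faint, while AIA 31, Control 15 and Control 16 show both blocks.

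Myosin heavy chains, the motors of the thick filament, showed the fast fibre RNA of each library. Myh4, the heavy chain of the fastest fibres (IIb), stood at 0.0209, 112 and 269 FPKM in Acu 4, 6 and 28, at 0.374, 39.7, 154 and 34.2 FPKM in AIA 5, 10, 31 and 38, and at 309, 1142 and 0.271 FPKM in Control 15, 16 and 17. Myh1, the IIx heavy chain, stood at 0.00989, 13.2 and 18.9 FPKM in Acu, at 0, 0.639, 15.4 and 3.69 FPKM in AIA, and at 33.5, 107 and 0 FPKM in Control, in the same order of libraries, which holds for every list of values that follows. Control 16, Control 15, Acu 28, AIA 31 and Acu 6 were the highest for both genes, in that order. Myh2, the IIa heavy chain, gave 0.0088, 1.62 and 1.78 FPKM in Acu, 0, 0, 5.18 and 0.346 FPKM in AIA, and 8.91, 26.7 and 0 FPKM in Control. Myh7, the heavy chain of slow fibres and of the heart, gave 0.0146, 0.0114 and 0.133 FPKM in Acu, 0.00791, 0.102, 0.947 and 0.0341 FPKM in AIA, and 2.65, 6.99 and 0.068 FPKM in Control. Myh7 was above 0.5 FPKM in AIA 31, Control 15 and Control 16 alone.

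Because the heavy chains are counted in the same library, their mix does not depend on how much muscle RNA it holds. Myh7 took 0.0128% of the reads of the 4 heavy chains in Acu 6 (exact 95% binomial interval 0.00155% to 0.0461%, 2 of 15655 reads) and 0.0655% in Acu 28 (0.0415% to 0.0982%, 23 of 35127 reads). It took 0.127% in AIA 38 (0.0412% to 0.296%, 5 of 3942 reads) and 0.763% in AIA 31 (0.644% to 0.897%, 145 of 19011 reads). In Control 15 it took 1.06% (0.957% to 1.17%, 376 of 35451 reads) and in Control 16 it took 0.772% (0.723% to 0.823%, 930 of 120516 reads). The intervals of Acu 6, Acu 28 and AIA 38 lay below those of AIA 31, Control 15 and Control 16, and such intervals cover counting error only. AIA 10 lay between them at 0.362% (0.174% to 0.665%). Myh2 followed the same division per length, at 1.27%, 0.615% and 0.905% of heavy chain FPKM in Acu 6, Acu 28 and AIA 38, and at 2.95%, 2.52% and 2.08% in AIA 31, Control 15 and Control 16. Myh4 made up between 87.3% and 92.8% in those 6 libraries. The libraries labelled Acu 4 and Control 17 held only 6 and 34 heavy chain reads, and AIA 5 held 34.

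Light chains and myosin-binding protein C, which sit on the myosin heads and along the thick filament, divided in the same way except for Mybpc1. Mylpf, the fast regulatory light chain, stood at 1.01, 155 and 696 FPKM in Acu, at 8.60, 52.1, 293 and 52.3 FPKM in AIA, and at 485, 2441 and 1.17 FPKM in Control. Its slow counterpart Myl2 stood at 0.0322, 0.0253 and 0.434 FPKM in Acu, at 0, 0, 6.32 and 0 FPKM in AIA, and at 18.4, 49.1 and 0.134 FPKM in Control. Acu 28 thus exceeded Control 15 in Mylpf while holding 17 reads of Myl2, against 591 in Control 15. Myl1, the fast essential light chain, gave 0.151, 89.1 and 355 FPKM in Acu, 0.23, 10, 190 and 32.5 FPKM in AIA, and 272, 1412 and 0.377 FPKM in Control. Its slow counterpart Myl3 gave 0, 0.0724 and 0.146 FPKM in Acu, 0, 1.94, 5.04 and 0 FPKM in AIA, and 13.2, 34 and 0.127 FPKM in Control. Myl2 and Myl3 were both at 0 in AIA 38, where Mylpf and Myl1 were plainly present.

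Mybpc2, the fast binding protein, was at 0.4, 22.4 and 21.5 FPKM in Acu, at 1.21, 3.37, 18.8 and 4.72 FPKM in AIA, and at 38.6, 128 and 0.18 FPKM in Control. Mybpc1, named the slow binding protein although fast fibres also make it, was at 0.375, 7.56 and 16.8 FPKM in Acu, at 0.136, 1.89, 11.5 and 2.42 FPKM in AIA, and at 23.4, 72.2 and 0.0288 FPKM in Control. The ratio of Mybpc2 to Mybpc1 FPKM was 2.96 in Acu 6, 1.28 in Acu 28, 1.95 in AIA 38, 1.63 in AIA 31, 1.65 in Control 15 and 1.77 in Control 16, so Mybpc1 went with the fast genes and not with the other slow ones.

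On the thin filament, Acta1, the skeletal actin of all fibres, stood at 53.4, 338 and 1032 FPKM in Acu, at 0.843, 88.5, 572 and 101 FPKM in AIA, and at 951, 3710 and 16.1 FPKM in Control. The groups overlapped, with means of 475 ± 503 FPKM in Acu, 191 ± 258 FPKM in AIA and 1559 ± 1920 FPKM in Control (SD, n = 3, 4 and 3). Tpm2, a tropomyosin that smooth muscle also makes, stood at 349, 54.2 and 173 FPKM in Acu, at 4.05, 31.6, 103 and 23.6 FPKM in AIA, and at 189, 898 and 59.4 FPKM in Control. Neb, the giant ruler of the thin filament, stood at 0.052, 3.54 and 6.09 FPKM in Acu, at 0.554, 0.667, 4.71 and 1.04 FPKM in AIA, and at 5.95, 18.8 and 0.162 FPKM in Control. Control 16 was highest for Acta1, Tpm2 and Neb. Acu 28 lay just above Control 15 for Acta1 and Neb, while Tpm2 was second highest in the library labelled Acu 4.

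The troponins, which make the thin filament answer to calcium, differed between fast and slow forms as the myosins did. Tnnt3, fast troponin T, stood at 1.98, 109 and 392 FPKM in Acu, at 1.94, 16.2, 232 and 42.2 FPKM in AIA, and at 461, 1743 and 0.411 FPKM in Control. Slow Tnnt1 stood at 0.912, 0.537 and 1.15 FPKM in Acu, at 0.464, 2.96, 5.03 and 0.454 FPKM in AIA, and at 19.8, 43.3 and 0.532 FPKM in Control. Tnnt1 in Acu 6 and Acu 28 was thus about as low as in the libraries with almost no muscle RNA. Tnni2, fast troponin I, the subunit that holds contraction off, gave 2.98, 82.7 and 262 FPKM in Acu, 2.64, 104, 152 and 30.1 FPKM in AIA, and 355, 1430 and 0.479 FPKM in Control. Slow Tnni1 gave 0.122, 0.0274 and 0.470 FPKM in Acu, 0.114, 0.221, 1.61 and 0.147 FPKM in AIA, and 5.46, 12.9 and 0.271 FPKM in Control. Tnnc1, the calcium-binding troponin C of slow and heart muscle, gave 1.63, 0.0474 and 1.72 FPKM in Acu, 0.196, 2.46, 12.8 and 0 FPKM in AIA, and 40.1, 85.5 and 2.82 FPKM in Control. Tnnc1 had 1 read in Acu 6 and 36 in Acu 28, against 687 in Control 15 and 1375 in Control 16.

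Tnnc2, the fast troponin C, was listed at 0 in 6 libraries and reached at most 0.0809 FPKM, which was 1 read, although its partners Tnnt3 and Tnni2 stood at 1743 and 1430 FPKM in Control 16. In the deposited coordinates Tnnc2 (chromosome 2, 164777161 to 164779967, minus strand, mm10) overlaps Ube2c on the other strand. Pygm, the muscle glycogen phosphorylase, was listed at 0 in all 10 libraries and overlaps no other gene in the table. Such zeros beside abundant partners may be failed estimates, so no direction was read from either gene and the pair of Tnnc2 and Tnnc1 was left out of the isoform ratios.

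At the Z-disc, which anchors the thin filaments, and along the elastic scaffold, all genes except Des were highest in Control 16. Actn3, the alpha-actinin of fast fibres, stood at 0.868, 35.7 and 82.8 FPKM in Acu, at 0.636, 10.3, 58.1 and 11.8 FPKM in AIA, and at 96.3, 378 and 2.27 FPKM in Control. Actn2, the alpha-actinin of all fibres, stood at 0.0497, 5.17 and 11.7 FPKM in Acu, at 0.629, 1.91, 11 and 1.57 FPKM in AIA, and at 18.5, 62.6 and 0.0515 FPKM in Control. Their ratio held between 5.20 and 7.52 in the 6 libraries Acu 6, Acu 28, AIA 31, AIA 38, Control 15 and Control 16, and was 5.42 in AIA 10. Ttn, titin, the molecular spring, gave 0.0172, 1.09 and 3.15 FPKM in Acu, 0.0986, 0.211, 2.57 and 0.367 FPKM in AIA, and 4.41, 16.4 and 0.0217 FPKM in Control. Ldb3, which binds alpha-actinin at the Z-disc, gave 1.03, 4.10 and 11.5 FPKM in Acu, 0.0223, 1.75, 8.51 and 1.66 FPKM in AIA, and 14.3, 59.2 and 0.309 FPKM in Control. In both genes Acu 28 lay below Control 15 and above all AIA libraries.

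The calcineurin-binding calsarcins showed a division too, less clear in AIA 38. Myoz1, the fast one, was at 0.0332, 22.3 and 69.5 FPKM in Acu, at 0.036, 6.11, 29.3 and 5.10 FPKM in AIA, and at 70.0, 231 and 0.0689 FPKM in Control. Myoz2, the slow and cardiac one, was at 1.25, 0.144 and 0.83 FPKM in Acu, at 0, 0, 2.17 and 0.155 FPKM in AIA, and at 3.79, 9.32 and 1.98 FPKM in Control. The ratio of Myoz1 to Myoz2 was 155 in Acu 6, 83.8 in Acu 28 and 33.0 in AIA 38, against 13.5 in AIA 31, 18.5 in Control 15 and 24.8 in Control 16. The ratios of Acu 6 and AIA 38 rest on 10 and 9 reads of Myoz2. In the libraries labelled Acu 4 and Control 17 Myoz2 had 68 and 104 reads, so it did not track skeletal fibre RNA there. The remaining Z-disc genes Tcap (titin cap), Myot (myotilin) and Xirp2 were highest in Control 16, at 844, 93.5 and 16.4 FPKM.

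Des, desmin, the intermediate filament of all muscle cells, went its own way. It stood at 961, 37.8 and 82.7 FPKM in Acu, at 15, 61.9, 48.8 and 31 FPKM in AIA, and at 66.8, 199 and 1228 FPKM in Control. The peaks were the libraries labelled Control 17 and Acu 4, where 10 smooth muscle genes summed to 891 and 4274 FPKM, against 39.5 to 231 FPKM in the other 8 libraries. In the library labelled Control 17 the smooth muscle actins Acta2 and Actg2 stood at 312 and 274 FPKM. In AIA 10 Des stood at 127% of the AIA 31 level. The part of smooth muscle RNA in Des and Tpm2 was not tested.

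Genes of excitation and calcium handling were low for channels and high for the pump and buffers. Ryr1, the calcium release channel, stood at 0.0518, 2.64 and 4.88 FPKM in Acu, at 0.243, 3.33, 3.12 and 0.797 FPKM in AIA, and at 6.32, 22.6 and 0.0149 FPKM in Control. Cacna1s, the voltage sensor that opens it, stood at 0.432, 1.81 and 1.64 FPKM in Acu, at 0.0416, 0, 1.43 and 0.341 FPKM in AIA, and at 2.52, 7.59 and 0.0398 FPKM in Control. Trdn, triadin, which ties calsequestrin to the channel, stood at 0.0269, 1.58 and 1.95 FPKM in Acu, at 0.051, 0.264, 1.92 and 0.679 FPKM in AIA, and at 3.12, 8.28 and 0.0209 FPKM in Control. For Cacna1s, Trdn and Ryr1 every Acu and AIA library lay below Control 15 and Control 16, and the library labelled Control 17 held almost none.

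Atp2a1, the fast calcium pump SERCA1, gave 0.235, 129 and 200 FPKM in Acu, 0.765, 0.634, 132 and 35.4 FPKM in AIA, and 286, 900 and 0.112 FPKM in Control. Pvalb, parvalbumin, the soluble calcium buffer of fast fibres, gave 0.121, 179 and 915 FPKM in Acu, 2.36, 302, 430 and 80.1 FPKM in AIA, and 871, 3451 and 0.688 FPKM in Control. Acu 28 and Control 15 were close in Pvalb, and AIA 10 held much Pvalb with almost no Atp2a1. Casq1, the fast calsequestrin that stores calcium, gave 0.547, 21.7 and 78.0 FPKM in Acu, 0.908, 2.67, 46.0 and 9.62 FPKM in AIA, and 74.8, 324 and 0.534 FPKM in Control. Casq2, the slow and cardiac form, gave 5.88, 0.126 and 0.819 FPKM in Acu, 0.0997, 0, 0.514 and 0.0645 FPKM in AIA, and 2.80, 3.71 and 1.12 FPKM in Control. Casq2 was highest in the library labelled Acu 4, so it did not track skeletal fibre RNA there.

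Among energy and oxygen genes, Ckm, muscle creatine kinase, stood at 0.453, 89.3 and 146 FPKM in Acu, at 0.164, 5.57, 93.6 and 23.5 FPKM in AIA, and at 180, 513 and 0.157 FPKM in Control. Mb, myoglobin, the oxygen store, stood at 0.295, 12.0 and 20.2 FPKM in Acu, at 0, 0, 27.0 and 5.72 FPKM in AIA, and at 40.2, 147 and 0 FPKM in Control. Eno3, muscle enolase, stood at 4.95, 74.4 and 215 FPKM in Acu, at 15.7, 38.1, 102 and 32.4 FPKM in AIA, and at 214, 798 and 2.25 FPKM in Control. In Mb, AIA 31 exceeded Acu 28, whereas in Ckm and Eno3 Acu 28 exceeded AIA 31. Pgam2, muscle phosphoglycerate mutase, reached 808 FPKM and Ampd1, muscle AMP deaminase, 55.4 FPKM, both in Control 16.

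The 9 usable isoform pairs were set side by side to describe which fibre RNA each library held. In them Actn2 is a gene of all fibres and Mybpc1 went with the fast genes. Neither of their pairs therefore reports slow fibre RNA. Relative to Control 16, the 13 fast genes with usable values in AIA 31 stood at a median of 13.5% (range 10.6% to 19.4%) and 6 slow sarcomere genes (Myh7, Myl2, Myl3, Tnnt1, Tnni1, Tnnc1) at 13.2% (11.6% to 14.9%). In Acu 28 the fast genes stood at 22.5% of Control 16 (6.66% to 30.0%) and the slow ones at 1.96% (0.430% to 3.64%). In Acu 6 the fast genes stood at 6.70% (5.18% to 17.5%) and the slow ones at 0.188% (0.0516% to 1.24%). In AIA 38 they stood at 2.42% (1.3% to 3.93%) and 0.244% (0% to 1.14%), and in Control 15 at 26.4% (19.3% to 33.3%) and 40.5% (37.6% to 47.0%). AIA 31 thus kept the fast and slow mix of Control 16 at a lower level, while Acu 6, Acu 28 and AIA 38 held fast genes with very little RNA of these 6 slow genes. These 6 genes leave out Mybpc1, Casq2 and Myoz2 and were chosen after their values were seen, so they carry no test.

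**Figure D3:**
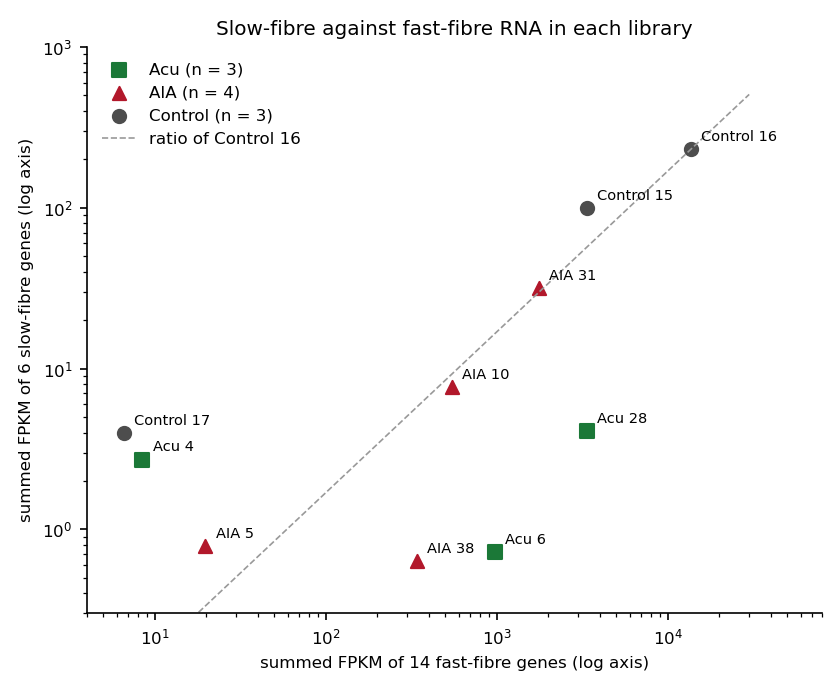
Summed FPKM of the 6 slow sarcomere genes (vertical, log axis) against summed FPKM of the 14 fast-fibre genes (horizontal, log axis), 1 point per library (Acu squares, AIA triangles, Control circles), with a dashed line at the ratio of Control 16. AIA 31, AIA 10 and Control 15 lie near the line, Acu 6, Acu 28 and AIA 38 lie well below it, and the libraries labelled Acu 4 and Control 17 lie above it with few reads.

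In reads, the 6 slow genes took 0.0701% of slow plus fast reads in Acu 6 (exact 95% binomial interval 0.0482% to 0.0984%, 33 slow reads) and 0.128% in Acu 28 (0.109% to 0.149%, 167 slow reads). They took 0.242% in AIA 38 (0.164% to 0.343%), 1.64% in AIA 31 (1.55% to 1.74%) and 1.66% in AIA 10 (1.42% to 1.92%). Control 15 had 2.63% (2.54% to 2.72%) and Control 16 had 1.63% (1.59% to 1.67%). By these 6 genes Acu 6 and Acu 28 lay below AIA 38, AIA 31, AIA 10, Control 15 and Control 16. AIA 38 was nearer to them than to AIA 31. The genes were chosen after their values were seen, so the intervals are no test of this order. All 9 slow members gave the same division with a narrower gap. They took 0.871%, 0.665% and 0.947% of slow plus fast FPKM in Acu 6, Acu 28 and AIA 38. In AIA 31, AIA 10, Control 15 and Control 16 they took 2.55%, 1.72%, 3.72% and 2.26%. AIA 5 had 25 slow reads (5.05%), and the libraries labelled Acu 4 and Control 17 had 69 and 95 (22.0% and 29.9%), beside 470, 244 and 223 fast reads. The adipocyte genes summed to 290 FPKM in Acu 6 and 467 FPKM in Acu 28, to 134 FPKM in AIA 38 and 489 FPKM in AIA 31, and their part in the division was not tested.

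The median over pairs of log2(fast FPKM / slow FPKM) was 7.67 in Acu 6 and 8.41 in Acu 28, 6.54 in AIA 38, 5.52 in AIA 31, 4.54 in Control 15 and 5.38 in Control 16. It includes Actn3 over Actn2 and Mybpc2 over Mybpc1, which do not report slow fibre RNA. Fewer pairs had a value in AIA 38 (7 pairs), AIA 10 (6 pairs, 2.44) and AIA 5 (6 pairs, 3.17). In the libraries labelled Acu 4 (8 pairs) and Control 17 the medians were 0.82 and 1.56. Each pair without a value had its slow gene at 0 beside reads of the fast gene, so pairs tilted to fast were left out. The medians of AIA 38, AIA 10, AIA 5 and the library labelled Acu 4 therefore cannot be ranked against those over 9 pairs. Tnni2 over Tnni1 was 3019 in Acu 6 and 558 in Acu 28, 205 in AIA 38 and 94.3 in AIA 31, against 65.0 in Control 15 and 111 in Control 16, and AIA 10 stood at 470 with 9 reads of Tnni1. Tnnt3 over Tnnt1 was 204 in Acu 6 and 340 in Acu 28, 93.0 in AIA 38 and 46.0 in AIA 31, against 23.3 in Control 15 and 40.2 in Control 16. AIA 10 stood at only 5.46 in this pair and at 5.17 in Myl1 over Myl3, so its pairs went both ways. Myh4 over Myh7 was 9823 in Acu 6, resting on 2 reads of Myh7, and 2020 in Acu 28, 1002 in AIA 38 (5 reads of Myh7), 387 in AIA 10 and 163 in AIA 31, against 116 in Control 15 and 163 in Control 16. Casq1 over Casq2 did not divide clearly. It was 172 in Acu 6 and 149 in AIA 38, with 7 and 3 reads of Casq2. Acu 28 at 95.2 (45 reads of Casq2) lay close to AIA 31 at 89.4 (25 reads) and Control 16 at 87.2. Control 15 stood lower, at 26.7.

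**Figure D4:**
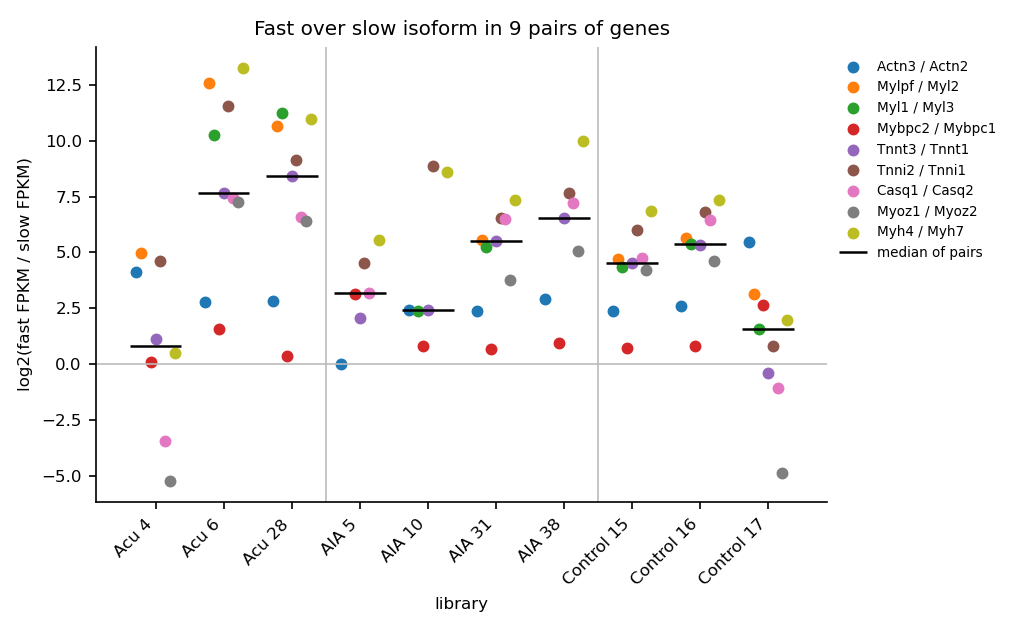
log2(fast FPKM / slow FPKM) of 9 isoform pairs (vertical) in each library (horizontal, Acu, AIA, then Control), 1 point per pair with the median as a bar; a pair with either gene at 0 has no point. The medians of Acu 6 and Acu 28 (7.67 and 8.41) are the highest among the libraries with all 9 pairs. Actn3 over Actn2 and Mybpc2 over Mybpc1 stay level across the libraries rich in muscle RNA. Actn2, plotted as the slow gene of its pair, is a gene of all fibres.

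Profiles over the 42 genes described the same grouping of libraries. As a description over genes of shared libraries, Pearson's r of log2(FPKM + 1) was 0.989 between Acu 6 and Acu 28, 0.983 between Acu 6 and AIA 38 and 0.982 between Acu 28 and AIA 38. It was 0.988 between AIA 31 and Control 15, 0.987 between AIA 31 and Control 16, and 0.992 between Control 15 and Control 16. AIA 31 and AIA 38, of the same group, gave 0.959. The libraries labelled Acu 4 and Control 17 gave 0.951 with each other and at most 0.637 with any other library.

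AIA 10 had an uneven muscle profile. Over the 31 members with at least 5 FPKM in AIA 31, its values lay between 0% and 136% of that library with a median of 17.8%, and 3 members (Myl2, Myh2 and Mb) were at 0. Pvalb stood at 70.1% and Tnni2 at 68.3% of AIA 31, but Atp2a1 at 0.479% and Ckm at 5.96%. AIA 38 lay between 0% and 63.6% with a median of 19.5%. AIA 10 also had the fewest genes above 0 and the lowest mitochondrial share, and the part of library quality in its muscle values was not tested.

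The first comparison asked whether adjuvant arthritis changed muscle RNA in the node, AIA against Control. With all 10 libraries in the fit, 40 of 42 members passed the filter on low values, and 0 were called at an adjusted p under 0.05 (limma, Benjamini-Hochberg over 17010 genes, of which 0.0235% were called in either direction and 0.0118% lower). All 40 log2 fold changes were below 0, with a median of -1.90, against -0.07 over all genes tested. An unadjusted p under 0.05 was reached by 8 of 40 members, which is not a larger share than the 4244 of 17010 genes that reached it. The smallest adjusted p was 0.0904, for Myoz2 (log2 fold change -1.93, SE 0.53). limma's voom on recovered reads also called 0. Without Control 16 the median was -0.49, and Myh4, Mylpf and Tnnt3 then had log2 fold changes above 0 (0.24, 0.71 and 0.06).

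Without the libraries labelled Acu 4 and Control 17, AIA (n = 4) against Control 15 and Control 16 (n = 2) had 21 of 40 members lower and 0 higher, where 13.4% of 16067 genes were called in either direction and 9.06% lower. All 9 slow members fell, and 4 of 13 fast members tested (Myh1, Myh2, Mybpc2 and Myoz1). Myh7, Myl2 and Tnni1 reached 0.5 FPKM only in Control 15, Control 16 and AIA 31. They passed the filter mainly through the Control libraries, so the count of slow genes supports nothing by itself. Of the slow troponins Tnnt1 fell by 3.51 on the log2 scale (SE 0.64, limma adjusted p = 0.0121). Tnni1 fell by 2.74 (SE 0.45, limma adjusted p = 0.00867), but as it passed the filter in this way its p supports nothing by itself. Of the shared genes Cacna1s, Ttn, Eno3, Trdn, Actn2, Ldb3, Neb and Ryr1 fell. The median over members was -3.63, against 0.00 over all genes tested, and it was -4.36 over the fast and -3.44 over the slow members. On this scale fast members had the larger fold changes and larger errors: Atp2a1 had -5.55 (SE 1.72, adjusted p = 0.0679). The order depended on the setting. By voom on recovered reads the median was -5.71 over slow and -5.19 over fast members. With a pseudocount of 0.1 it was -4.42 over slow and -5.06 over fast members.

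That count rested on single libraries. Leaving out Control 16 as well gave 1 of 37 members tested, with 18.5% of all genes called, and leaving out Control 15 gave 2 of 37, with 2.83% of 15653 genes called. In both of those fits the lone Control library is assumed to vary like the other groups, and 3 slow members (Myh7, Myl2 and Tnni1) were no longer tested. The count was 5 without AIA 38 (6.67% of all genes), 7 without AIA 5 (7.51%), 9 without Acu 28 (7.88%) and 11 without Acu 6 (8.23%). Without AIA 31 it was 30 of 37, where 8.89% of all genes were called, and without AIA 10 it was 19 of 40, where 21.5% were called. Array weights called 0 members and 10.5% of all genes, and a pseudocount of 0.1 called 6 members and 9.72%. No filter called 5 members and 8.37%, and a fit of these 2 groups alone 9 members and 7.99%. Voom called 14 members and 10.8%, and scaling each library to the same total called 25 members and 15.2%. In all of these the median over members stayed below 0, between -4.48 and -2.90 leaving out 1 more library. Control 15, with almost no lymphocyte RNA, and Control 16, with the most muscle RNA, were the whole Control group here, so muscle and fat content cannot be told apart from the saline group.

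The second comparison asked what acupuncture added to the adjuvant, Acu against AIA. With 10 libraries 0 of 40 members were called (limma, 0% of 17010 genes called). An unadjusted p under 0.05 was reached by 1 member, against 800 of 17010 genes. The median log2 fold change was 0.44, against 0.08 over all genes, with 31 members above 0 and 9 below. Voom on recovered reads called 0. Leaving out 1 library moved the median between -0.29, without Acu 28, and 1.59, without the library labelled Acu 4.

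Without the libraries labelled Acu 4 and Control 17, again 0 members were called in Acu (n = 2) against AIA (n = 4). Of 16067 genes 0% were called. An unadjusted p under 0.05 was reached by 2 members, against 479 of 16067 genes. Without AIA 31, 26 of 37 members reached that p, against 645 of 15708 genes, and the median over members was 2.46. Without AIA 5 that median was 0.93. With these 8 libraries the median was 1.59 over all members, 2.46 over the 13 fast members and -0.21 over the 9 slow members. The fast members lay between 0.67 and 3.89, and 6 of 9 slow members lay below 0, between -0.89 and 1.84 in all. Atp2a1 had 3.89 (SE 1.72, adjusted p = 0.984). Voom on recovered reads called 0, with 7 members at an unadjusted p under 0.05, against 389 of 16067 genes. Scaling each library to the same total called 0, with 15 such members, against 2569 of 18530 genes, and a median of 2.35. No difference between fast and slow members was tested, and neither a rise nor its absence can be read from 2 Acu libraries.

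The third comparison set Acu against Control. With 10 libraries 0 of 40 members were called (limma, 0% of 17010 genes called). An unadjusted p under 0.05 was reached by 7 members, against 1275 of 17010 genes. All 40 lay below 0 with a median of -1.17, against 0.02 over all genes. Voom on recovered reads called 0. Myh4, Mylpf, Tnnt3 and Acta1 turned above 0 without Control 16 (0.67, 0.89, 0.99 and 1.07) and without the library labelled Acu 4 (1.19, 1.27, 1.00 and 0.59), and Tnnt3 and Acta1 also without Control 15 (0.03 and 0.09). Casq2 stood at 0.07 without Acu 6, and Mybpc1 at 0.25 without Control 16.

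Without the libraries labelled Acu 4 and Control 17, 7 of 40 members were lower in Acu (n = 2) than in Control (n = 2) and 0 were higher, where 4.34% of 16067 genes were called in either direction and 3.47% lower. The 7 were Tnni1, Tnnt1, Myh7, Myl3, Myl2, Casq2 and Tnnc1, which are slow genes. Myh7, Myl2, Tnni1 and Myl3 reached 0.5 FPKM in neither Acu 6 nor Acu 28, so they passed the filter through Control and AIA libraries and the count of slow genes supports nothing by itself. Tnnc1 fell by 5.14 on the log2 scale (SE 1.2, limma adjusted p = 0.0471). Tnni1 fell by 2.95 (SE 0.52, limma adjusted p = 0.0246), but as it passed the filter in this way its p supports nothing by itself. Of the other slow members Myoz2 had -2.28 (SE 0.63, adjusted p = 0.0797) and Mybpc1 -1.78 (SE 1.01, adjusted p = 0.341). Of 13 fast members 0 were called, at log2 fold changes between -2.62 and -1.64. An unadjusted p under 0.05 was reached by 1 of them, against 3634 of 16067 genes. The median was -2.95 over slow and -1.79 over fast members, against 0.06 over all genes tested, and the difference between them was not tested. Leaving out 1 more library moved the slow median between -3.72 and -2.62 and the fast median between -2.89 and -0.83, the ends being without Control 15 and without Control 16.

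These 7 calls also rested on single libraries and settings. The count was 0 without Acu 6, Acu 28 or Control 15, where 0% of all genes were called, and 1 of 37 without Control 16, where 13.1% were called. It was 2 without AIA 5 (1.69% of all genes), 3 without AIA 38 (1.94%) and 5 of 37 without AIA 31 (2.08%). A group left with 1 library is assumed to vary like the others. Array weights called 0 members and 6.13% of all genes, voom 0 and 2.39%, a pseudocount of 0.1 0 and 1.38%, and a fit of the 2 groups alone 0 and 0.0911%. No filter called 2 members and 3.41% of all genes, and scaling each library to the same total called 4 and 4.23%. The slow median was -4.98 with a pseudocount of 0.1 and -6.06 by voom.

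**Figure D5:**
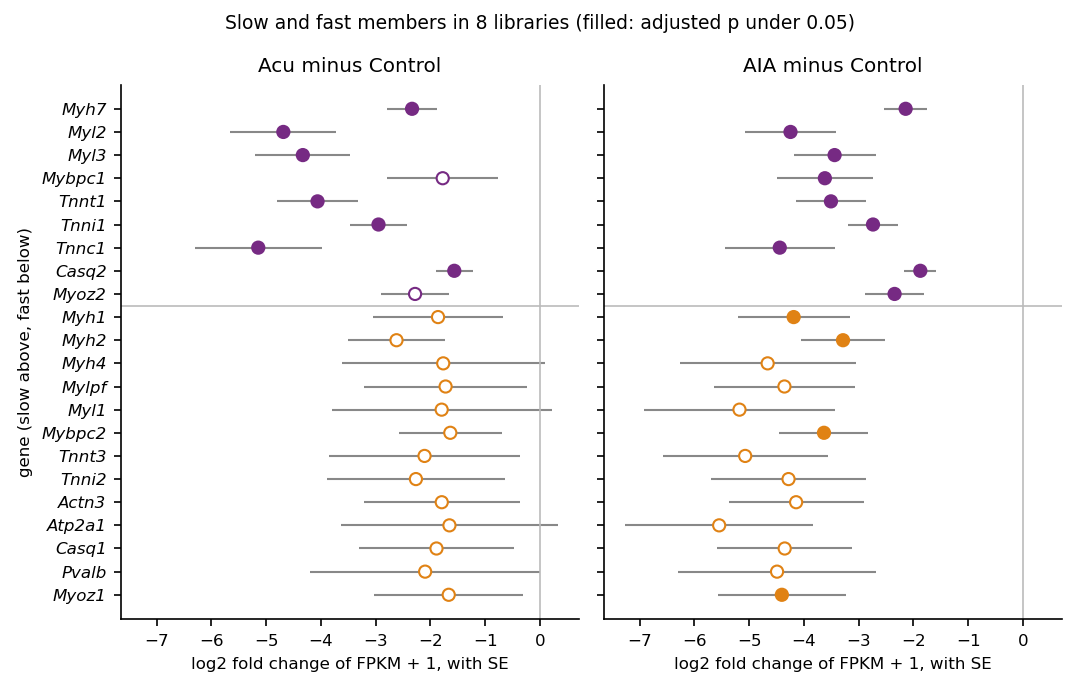
log2 fold change of FPKM + 1 with its standard error (horizontal) for 9 slow members (purple, above) and 13 fast members (orange, below), without the libraries labelled Acu 4 and Control 17; the left panel is Acu minus Control and the right panel AIA minus Control, and filled points had an adjusted p under 0.05. On the left 7 slow and 0 fast members are filled, and on the right 9 slow and 4 fast members are filled.

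Other muscle genes were followed in 3 further lists. With 10 libraries 0 genes of these lists were called in any of the 3 comparisons. Without the libraries labelled Acu 4 and Control 17, in AIA against Control 10 of 24 other sarcomere genes tested fell, 15 of 22 other excitation and contraction genes and 16 of 18 muscle metabolism genes, where 9.06% of all genes fell. Examples in the metabolism list are Cox8b, a muscle and brown fat subunit of cytochrome oxidase (log2 fold change -5.86, SE 1.28, adjusted p = 0.0226), and Cox6a2, its muscle subunit (-3.48, SE 0.85, adjusted p = 0.0332), both from limma. In Acu against Control 1 of 24, 0 of 22 and 4 of 18 genes of the 3 lists fell, where 3.47% of all genes fell, and in Acu against AIA 0 were called. Several of these genes are also made by fat: Gpd1, which stood at 1092 FPKM in Control 15 and 203 FPKM in Control 16, is one, and all 14 adipocyte genes tested fell in both comparisons with Control. The part of fat in the metabolism list was not tested.

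Markers of muscle precursors and of neighbouring tissue were followed as well. Of 14 myogenic regulator and satellite cell genes only 5 passed the filter without the libraries labelled Acu 4 and Control 17. Myf6, a regulator kept on in mature fibres, stood at 0, 4.76 and 5.01 FPKM in Acu, at 0, 0, 3.70 and 0.466 FPKM in AIA, and at 2.94, 17 and 0 FPKM in Control. It was highest in Control 16, while Control 15 lay below Acu 28, Acu 6 and AIA 31. Of 11 developmental and cardiac isoforms 4 passed. Actc1, the cardiac actin that skeletal muscle also makes at a low level, stood at 1.71, 1.77 and 16.7 FPKM in Acu, at 0, 0, 4.28 and 0.691 FPKM in AIA, and at 8.76, 35.8 and 0.684 FPKM in Control. Ankrd1, a stretch-responsive gene of heart and muscle, was highest in Acu 6 (9.11 FPKM) and AIA 31 (5.36 FPKM), and was at 0.448, 0.513 and 1.92 FPKM in Control. Of 9 tendon and fascia genes at least 4 were at or above 1 FPKM in every library, and the tissue they came from was not tested. Among the 5 tested without the libraries labelled Acu 4 and Control 17, Fmod alone was called. It was higher in AIA than in Control (log2 fold change 2.62, SE 0.43, limma adjusted p = 0.00845). It was also higher in Acu than in Control (2.25, SE 0.50, limma adjusted p = 0.0439). Fmod was lowest in Control 15, at 0.589 FPKM.

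Outside the 42 genes, the 10 whose log2(FPKM + 1) most resembled the mean of the members over the 10 libraries were Rpl3l, Eef1a2, Hrc, Mylk2, Smyd1, Hfe2, Sypl2, Ckmt2, Smpx and Dhrs7c. Pearson's r lay between 0.981 (Dhrs7c) and 0.997 (Rpl3l), over libraries that share the same RNA sources. Rpl3l stood at 10.9 FPKM in Acu 28 and 56.1 FPKM in Control 16.

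Some members are uncertain because of how reads can be shared. Mylf-ps, a pseudogene of Mylpf on chromosome 12, stood at 0, 13.5 and 53.1 FPKM in Acu, at 0, 9.01, 21.5 and 4.33 FPKM in AIA, and at 38.6, 190 and 0 FPKM in Control, so reads of Mylpf may have been divided between the copies. Myh1, Myh2 and Myh4 are neighbouring genes of closely related sequence on chromosome 11, between 67171027 and 67260446 (mm10). In the deposited coordinates 25 of the 42 members overlap another gene, 22 of them on the other strand, and the strand setting of the read counting is not stated in the sources used here.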

How the data were processed

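Gene expression was read from one deposited table of 54987 genes and 10 libraries, of which 1186 genes carried no Ensembl mouse ID and stayed in the fits. The authors deposited FPKM values, and the submitters' processing notes name the mm10 build and, with no roles given, DESeq2 1.16.1, featureCounts 1.5.0-p3, HISAT2 2.0.5 and StringTie 1.3.3b. RNA was extracted with Trizol, per the labels' protocols. Values times gene length came out as whole reads within 0.01 of a step, which gave the depth of each library.

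The 42 members and all other gene lists were chosen with earlier results of these data known. log2(FPKM + 1) was fitted over all 3 groups in limma 3.58.1 (R 4.3.3, trend) for genes with at least 0.5 FPKM in 3 libraries, with Benjamini-Hochberg adjustment over all genes tested and a threshold of 0.05. Fold changes on this scale understate the change of low genes. The fit and its alternative settings were repeated without the libraries labelled Acu 4 and Control 17, and the fit alone also without Control 15. Per-library values were named for the isoform pairs, for Myh1, Myh2, Acta1, Ckm, Ttn, Pvalb, Mb, Des and Ryr1, for each member called, for up to 4 highest genes of each other list and for the 10 genes most like the members. Binomial intervals are exact, at 95%, and cover counting error only. Motifs were searched on both strands. Results for some genes of the other lists are not reported here.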

Additional observations from a re-analysis of the deposited data

Results flagged for a closer look

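Single genes in the AIA group, which has 4 libraries, had one library far from the others. It was AIA 31 each time, and the measure is the gap from AIA 31 to the nearest library divided by the range of the group, which is 1 at most (Dixon's ratio at its 95% level). The slow genes Myl2 (1), Tnni1 (0.892), Myoz2 (0.875) and Myh7 (0.864) and the fast heavy chain Myh2 (0.837) stood out. Tnnc2 also gave 1, but that was a single read. Of 44 values examined in this way 6 passed. Chance gives about 1 in 20 for independent values, but these share the same 4 libraries, so the count is a description. AIA 31 also had the highest adipocyte sum of the AIA libraries, 489 FPKM against 85.5 to 257 FPKM, and the part of neighbouring tissue in these values was not tested.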

How the results depend on the processing

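No paired analysis was possible because the groups share no replicate number. A quasi-likelihood count test on the recovered reads was not run. The share of all genes called moved between settings too. In AIA against Control with 10 libraries it was 2.07% scaled to equal totals and 0% to 10.4% leaving out 1. In 8 libraries it was 13.4%, 10.8% by voom, 9.72% with a pseudocount of 0.1 and 6.67% to 21.5% leaving out 1 AIA library. In Acu against Control in 8 libraries it was 4.34%, and 1.69% to 13.2% leaving out 1 AIA library. With 10 libraries, members called in AIA against Control were 1 with array weights (19.5% of all genes called) and 1 with these groups alone (4.97%). They were 21 without the libraries labelled Acu 4 and Control 17 (13.4%). Leaving out 1 library gave 0 to 8, the 8 being without Control 17 (5.84%). In Acu against Control they were 1 with array weights (12.2%), 7 without those libraries (4.34%) and 0 to 5 leaving out 1 library. The 5 came without Control 17 (1.83%). Other muscle genes called in AIA against Control were 7 with array weights, 4 with these groups alone, 2 scaled to equal totals, 41 and 15 without those libraries, and 0 to 18 leaving out 1; in Acu against Control they were 4, 5 and 0 to 3. In 8 libraries, members called in AIA against Control were 0 with array weights, 5 with no filter, 9 with these groups alone, 6 with a pseudocount of 0.1, 14 by voom and 1 to 30 leaving out 1 more. In Acu against Control they were 0, 2, 0, 0 and 0, 4 scaled to equal totals, and 0 to 7. Other muscle genes called in AIA against Control there were 5 with array weights (10.5% of all genes) and 17 with a pseudocount of 0.1 (9.72%). Leaving out 1 AIA library gave 16 (without AIA 38, 6.67%) to 53 (without AIA 31, 8.89%). In Acu against Control they were 1 with array weights (6.13%), 1 with a pseudocount of 0.1 (1.38%) and 0 with these groups alone (0.0911%). They were 2 scaled to equal totals (4.23%), 1 by voom (2.39%) and 1 to 6 leaving out 1 AIA library, the 6 being without AIA 10 (13.2%).

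Medians over members leaving out 1 of 10 libraries ran from -3.63 to -0.49 (AIA against Control), -0.29 to 1.59 (Acu against AIA) and -3.13 to 0.18 (Acu against Control). Members whose sign turned ran from -2.81 to 1.07 (Acta1), -1.23 to 0.074 (Casq2), -2.83 to 0.25 (Mybpc1, and 0.00087 by voom), -4.24 to 1.19 (Myh4), -4.18 to 1.27 (Mylpf) and -4.15 to 1.00 (Tnnt3) in Acu against Control, and from -4.66 to 0.24 (Myh4), -4.36 to 0.71 (Mylpf) and -5.07 to 0.064 (Tnnt3) in AIA against Control. Scaling to equal totals moved the median of all genes to -0.36, 0.50 and 0.17 in AIA against Control, Acu against AIA and Acu against Control. The cause of these changes was not tested.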
